A study of Homo sapiens with 8 samples.

Results

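RNA of 10 genes grouped as transcriptional output of the ERK pathway was followed across 4 human cell lines. ERK activity itself was not measured. The genes are the PEA3 transcription factors ETV1, ETV4 and ETV5, the MAP kinase phosphatases DUSP4 and DUSP6, the Sprouty and Spred proteins SPRY2, SPRY4, SPRED1 and SPRED2, and PHLDA1. They were taken by gene symbol, 10 of the 23615 symbols with an expression value, and all 10 were among the 16295 genes that passed the filter on low values. In both HEK293 libraries 6 of them stood lower than in all 6 libraries of the other lines, as did 1.34% of all tested genes. The 10 genes were selected on their FPKM in these same libraries, so their levels and differences are a description and carry no p-value.

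The study sequenced RNA after depletion of ribosomal RNA, to look for receptors of epoxyeicosatrienoic acids (EETs), lipid mediators made from arachidonic acid. U937 is a leukemic line, EaHy an endothelial line and PC3M a prostate cancer line grown as PC3M-LN4, and these 3 bind EETs. HEK293, an embryonic kidney line that carries adenovirus DNA, does not, and it served as the line of comparison. U937 and EaHy grew in RPMI medium with heat-inactivated serum, PC3M in the same with added glutamine, and HEK293 in DMEM with such serum, and the labels name no treatment. Each line gave 2 libraries from cells collected in duplicate, so SEs and p-values measure how far duplicate libraries differ, which may be technical. Each SE rests on a spread shared by all lines, so a gene has the same SE in every comparison. Medium and line cannot be told apart. The values are FPKM, fragments per kilobase of transcript, scaled to the mapped fragments of the library. In such bulk samples a gene expressed in fewer cells and a gene expressed less per cell cannot be told apart.

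ERK1 and ERK2 are the last kinases of the RAS, RAF and MEK cascade, which carries growth factor signals to the nucleus. Active ERK induces a set of early genes that include its own brakes. DUSP6 removes phosphate from ERK in the cytoplasm and DUSP4 does so in the nucleus. Sprouty proteins dampen receptor tyrosine kinase signalling, and Spred proteins bring neurofibromin to RAS. The PEA3 factors are ETS proteins that carry the signal on to further genes. The repressor CIC, which ERK signalling relieves, acts on PEA3, DUSP and Sprouty genes.

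The libraries differed in composition. Summed FPKM ranged from 497389 to 1926028, and read counts were not used here, so depth is unknown. RMRP, a small noncoding RNA, took 14.3% of all FPKM in EaHy replicate 2, 35.6% in PC3M replicate 1 and 34.0% in PC3M replicate 2, and at most 0.175% in the other 5 libraries. Those 5 were not alike in small RNAs as a class. Small RNAs, RMRP included, took 51.0% and 19.9% of FPKM in U937 replicates 1 and 2, and 44.2% and 18.4% in those of HEK293. The shares were 34.8% and 83.0% in EaHy, and 65.0% and 81.1% in PC3M. The 10 myeloid markers summed to 2359 and 4439 FPKM in U937, against 2.67 to 55.7 FPKM in the other lines. The 10 endothelial markers summed to 334 and 579 FPKM in EaHy, against 2.18 to 19.2 FPKM elsewhere, and the 10 neuronal and embryonic kidney markers summed to 1092 and 1491 FPKM in HEK293, against 0.966 to 516 FPKM elsewhere. The 10 epithelial and prostate markers did not set PC3M apart (461 and 134 FPKM, against 694 and 427 FPKM in EaHy), and KLK3, a marker of prostate luminal cells, was listed at 0 in PC3M replicate 1.

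Promoter sequences are shown for 3 genes that stood lowest in HEK293, DUSP6, SPRY4 and PHLDA1, and for SPRY2, which did not follow the pattern. ETV1 is also shown, since its window held the only match to the CIC octamer as spelled below. RefSeq windows of 300 bases, 250 before and 50 after the annotated start, were matched for 7 of the 10 genes on the GRCh38.p14 build. ETV4, ETV5 and DUSP4 had no entry. Capitals mark matches on either strand to an ETS site (CCGGAA), the CIC octamer (TGAATGAA or TGAATGGA), an AP-1 site (TGANTCA), a cAMP response element (TGACGTCA) or a CArG box. No match overlapped another.
DUSP6 promoter, chr12:89352452-89352751, minus strand: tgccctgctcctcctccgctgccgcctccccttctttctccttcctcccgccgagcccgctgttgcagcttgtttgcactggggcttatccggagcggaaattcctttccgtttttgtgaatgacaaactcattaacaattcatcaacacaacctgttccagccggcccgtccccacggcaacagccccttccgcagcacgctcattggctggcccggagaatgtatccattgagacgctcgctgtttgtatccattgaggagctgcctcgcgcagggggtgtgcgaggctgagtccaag
SPRY4 promoter, chr5:142324198-142324497, minus strand: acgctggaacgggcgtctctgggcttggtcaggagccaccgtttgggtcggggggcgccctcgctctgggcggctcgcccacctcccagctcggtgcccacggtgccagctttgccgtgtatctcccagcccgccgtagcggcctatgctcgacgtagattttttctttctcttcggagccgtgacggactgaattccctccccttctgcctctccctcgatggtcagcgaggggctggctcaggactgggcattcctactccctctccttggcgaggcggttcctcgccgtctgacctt
PHLDA1 promoter, chr12:76031727-76032026, minus strand: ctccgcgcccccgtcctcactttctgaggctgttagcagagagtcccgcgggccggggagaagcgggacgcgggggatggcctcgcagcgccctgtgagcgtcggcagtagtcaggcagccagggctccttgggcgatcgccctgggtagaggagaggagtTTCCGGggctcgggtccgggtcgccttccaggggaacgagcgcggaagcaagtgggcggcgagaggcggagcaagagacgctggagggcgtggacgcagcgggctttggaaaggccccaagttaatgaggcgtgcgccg
ETV1 promoter, chr7:13991376-13991675, minus strand: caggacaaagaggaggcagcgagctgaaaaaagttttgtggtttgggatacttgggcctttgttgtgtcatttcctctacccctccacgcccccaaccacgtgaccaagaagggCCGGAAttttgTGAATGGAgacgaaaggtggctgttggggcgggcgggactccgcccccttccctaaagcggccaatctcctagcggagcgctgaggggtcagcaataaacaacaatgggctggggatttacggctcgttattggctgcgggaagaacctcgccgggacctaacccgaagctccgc
SPRY2 promoter, chr13:80341077-80341376, minus strand: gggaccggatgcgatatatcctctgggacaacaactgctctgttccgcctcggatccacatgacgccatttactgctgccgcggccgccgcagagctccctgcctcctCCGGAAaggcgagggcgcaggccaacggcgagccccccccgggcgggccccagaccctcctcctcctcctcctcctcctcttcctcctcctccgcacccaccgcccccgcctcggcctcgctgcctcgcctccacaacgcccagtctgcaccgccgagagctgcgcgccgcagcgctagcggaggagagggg

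None of the 5 motifs, as spelled above, occurred in the DUSP6 and SPRY4 windows, though both hold the shorter letters GGAA, which were not searched. The CIC octamer was searched in the 2 spellings above only. The DUSP6 window holds stretches that differ by a base from a searched CIC spelling, and these were not counted. The lack of a match therefore does not show that a window lacks a CIC site. PHLDA1 held the ETS site 89 bases before its start and SPRY2 held it 142 bases before its start in the first of 3 windows. The ETV1 window, the second of 6 for that gene, held an ETS site and a CIC octamer, at 136 and 125 bases before the start. For ETV1, 2 of the other windows held an ETS site. Of 27303 human promoter windows, 17.6% held the ETS site, 2.66% the CIC octamer, 7.76% the AP-1 site, 1.98% the cAMP response element and 1.29% the CArG box. These shares count only the first window of each gene, while every window of the matched genes was searched, so a gene with more windows is not comparable with them. SPRED1 held no match, and the second of 2 SPRED2 windows held 2 AP-1 matches. These matches describe the letters in the windows and not binding.

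The PEA3 factors ETV4 and ETV5 were expressed in the 3 EET-binding lines and near the bottom of the expressed genes in HEK293. ETV4 stood at 8.60 and 9.64 FPKM in U937, 18.1 and 7.33 FPKM in EaHy and 24.9 and 8.70 FPKM in PC3M, against 0.659 and 0.468 FPKM in HEK293. ETV5 stood at 15.3 and 15.0 FPKM in U937, 13.1 and 5.36 FPKM in EaHy and 8.39 and 3.36 FPKM in PC3M, against 0.791 and 0.261 FPKM in HEK293. For both genes every library of the 3 lines lay above both HEK293 libraries. On the log2(FPKM + 0.5) scale, ETV4 differed from HEK293 by 3.18 ± 0.71 in U937, 3.51 ± 0.71 in EaHy and 3.85 ± 0.71 in PC3M (SE, n = 2 libraries per line). The 3 lines overlapped in ETV4 among themselves, so their order, PC3M, EaHy, U937, is not beyond the spread of the libraries. ETV5 differed by 3.98 ± 0.69, 3.17 ± 0.69 and 2.56 ± 0.69 in U937, EaHy and PC3M. Its U937 libraries lay above both EaHy libraries, while EaHy and PC3M overlapped.

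ETV1, the third PEA3 gene, had a pattern of its own. It stood at 0.266 and 0.0165 FPKM in U937, 4.38 and 2.29 FPKM in EaHy and 1.71 and 0.312 FPKM in PC3M, against 0.200 and 0.438 FPKM in HEK293. EaHy was the highest line, with both libraries above all others. PC3M lay above U937 in both libraries, while HEK293 overlapped with each of them. The log2 difference from HEK293 was 2.19 ± 0.58 in EaHy, 0.72 ± 0.58 in PC3M and −0.37 ± 0.58 in U937, where the sign turned, to 0.054, after quantile normalization. Without PC3M replicate 1 the PC3M difference was 0.003, and without PC3M replicate 2 it was 1.44. Of the summed FPKM of the 3 PEA3 genes, the U937 libraries had 1.10% and 0.0666% from ETV1, the EaHy libraries 12.3% and 15.3%, and the PC3M libraries 4.88% and 2.52%. In HEK293, where the sum itself was only 1.65 and 1.17 FPKM, its share was 12.1% and 37.5%.

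**Figure D1:**
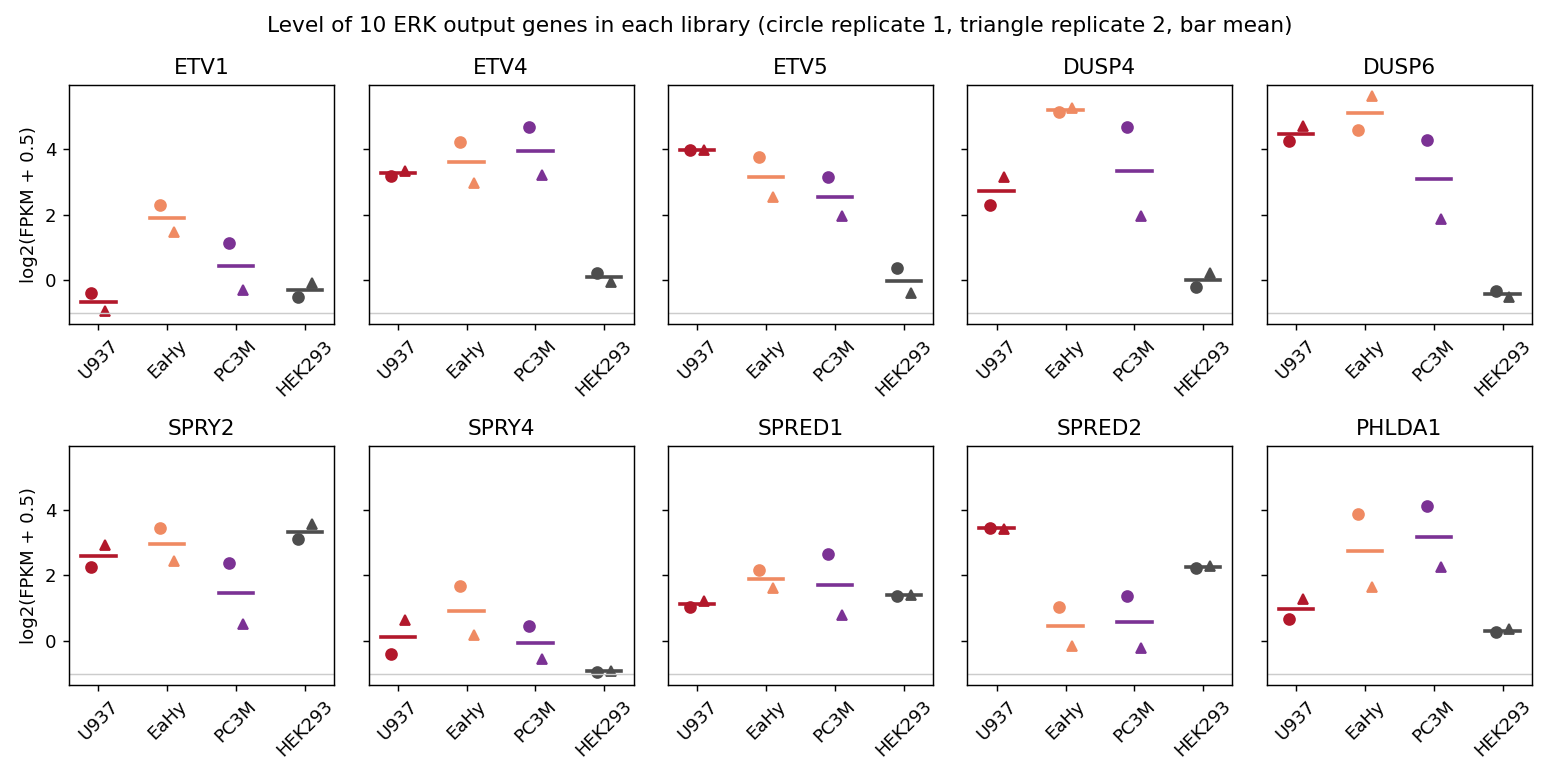
Level of the 10 genes in each library as log2(FPKM + 0.5), with the 4 lines on the horizontal axis, a circle for replicate 1, a triangle for replicate 2, and a bar at the mean of both. ETV4, ETV5, DUSP4, DUSP6, SPRY4 and PHLDA1 are lowest in both HEK293 libraries, while SPRY2 has its highest mean there.

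The phosphatase genes DUSP4 and DUSP6 had the largest differences from HEK293 among the 10 genes in EaHy. DUSP6 stood at 18.4 and 25.5 FPKM in U937, 23.6 and 48.9 FPKM in EaHy and 19.0 and 3.14 FPKM in PC3M, against 0.296 and 0.200 FPKM in HEK293. The mean FPKM was 88.7 times that of HEK293 in U937, 146 times in EaHy and 44.6 times in PC3M, ratios that rest on low HEK293 values. The log2 difference was 4.89 ± 0.85 in U937, 5.53 ± 0.85 in EaHy and 3.50 ± 0.85 in PC3M. No library of the 3 lines came near the HEK293 libraries, but U937 overlapped with both EaHy and PC3M. The PC3M difference was 2.29 without PC3M replicate 1 and 4.70 without PC3M replicate 2.

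DUSP4 separated the lines further. It stood at 4.39 and 8.46 FPKM in U937, 35.0 and 37.6 FPKM in EaHy and 25.2 and 3.42 FPKM in PC3M, against 0.369 and 0.674 FPKM in HEK293. Both EaHy libraries lay above all others, PC3M and U937 overlapped, and HEK293 lay below every library. The log2 differences were 2.71 ± 0.88, 5.19 ± 0.88 and 3.31 ± 0.88 in U937, EaHy and PC3M, and the last was 1.96 without PC3M replicate 1 and 4.67 without PC3M replicate 2. Within a library, a ratio of FPKM does not depend on the scale of that library. DUSP4 was 0.239 and 0.331 times DUSP6 in the U937 libraries, 1.48 and 0.768 times in those of EaHy, 1.33 and 1.09 times in those of PC3M, and 1.25 and 3.37 times in those of HEK293. Both U937 libraries had more DUSP6 per DUSP4 than any other library.

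The Sprouty genes went different ways. SPRY4 was low in all lines and lowest in HEK293, at 0.265 and 1.05 FPKM in U937, 2.67 and 0.634 FPKM in EaHy and 0.869 and 0.176 FPKM in PC3M, against 0.0215 and 0.0345 FPKM in HEK293. U937, EaHy and PC3M overlapped. Because the values are small, the pseudocount sets much of its log2 difference, which was 1.04 ± 0.61 in U937, 1.85 ± 0.61 in EaHy and 0.87 ± 0.61 in PC3M, and 2.34, 3.48 and 2.02 with a pseudocount of 0.1. Leaving out a library of the tested line moved it to between 0.53 and 1.55 in U937, 1.10 and 2.59 in EaHy, and 0.36 and 1.38 in PC3M.

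SPRY2 alone among the 10 genes had its highest mean FPKM in HEK293, as deposited. ETV1, SPRED1 and SPRED2 were also not lowest there in FPKM. It stood at 4.24 and 7.16 FPKM in U937, 10.3 and 4.97 FPKM in EaHy and 4.75 and 0.924 FPKM in PC3M, against 8.14 and 11.3 FPKM in HEK293. The libraries of U937 and PC3M lay below both HEK293 libraries and those of EaHy overlapped with them. The log2 difference of −0.75 ± 0.77 in U937 and that of −1.89 ± 0.77 in PC3M kept their sign under all scalings, but the PC3M value shrank to −0.17 after median scaling. It was −2.83 without PC3M replicate 1 and −0.95 without PC3M replicate 2, and the U937 value was −0.40 without U937 replicate 1 and −1.09 without U937 replicate 2. In EaHy, −0.39 ± 0.77 turned to 0.12, 0.33 and 0.26 after upper-quartile scaling, median scaling and quantile normalization, and to 0.10 without EaHy replicate 2. SPRY2 exceeded SPRY4 by 379 and 328 times within the HEK293 libraries, and by 3.87 to 16.0 times in the 6 others. Likewise DUSP6 was 0.0363 and 0.0177 times SPRY2 in HEK293, and 2.28 to 9.85 times SPRY2 in the other 6 libraries.

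SPRED1 and SPRED2, which share the step of recruiting neurofibromin, differed in their balance between lines. SPRED2 stood at 10.5 and 10.2 FPKM in U937, 1.56 and 0.395 FPKM in EaHy and 2.07 and 0.366 FPKM in PC3M, against 4.21 and 4.34 FPKM in HEK293. U937 was the highest line and HEK293 next, each with both libraries above the line that followed, and PC3M and EaHy overlapped. The log2 difference was 1.19 ± 0.69 in U937, −1.81 ± 0.69 in EaHy and −1.68 ± 0.69 in PC3M. The EaHy and PC3M values shrank to −0.96 and −0.098 after quantile normalization, and that of PC3M to −0.23 after median scaling. The PC3M value was −2.46 without PC3M replicate 1 and −0.90 without PC3M replicate 2.

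SPRED1 stood at 1.53 and 1.84 FPKM in U937, 4.0 and 2.55 FPKM in EaHy and 5.77 and 1.22 FPKM in PC3M, against 2.11 and 2.12 FPKM in HEK293. Its log2 differences from HEK293 were −0.26 ± 0.68, 0.50 ± 0.68 and 0.33 ± 0.68 in U937, EaHy and PC3M. As deposited none exceeded its SE, which is shared by all lines. The SD of the log2 levels was 1.32 in PC3M and 0.40 in EaHy, against 0.14 in U937 and 0.0007 in HEK293. Upper-quartile scaling, median scaling and quantile normalization gave differences of 0.93, 1.09 and 1.30 in EaHy and 1.46, 1.95 and 2.07 in PC3M. The sign turned in U937 after median scaling (0.042) and quantile normalization (0.34) and in PC3M without replicate 1 (−0.60, against 1.26 without replicate 2). SPRED2 was 6.87 and 5.57 times SPRED1 in the U937 libraries, 0.391 and 0.155 times in those of EaHy, 0.358 and 0.299 times in those of PC3M, and 1.99 and 2.05 times in those of HEK293. By this ratio U937 lay above HEK293 in both libraries, and EaHy and PC3M lay below it. Of the summed FPKM of the 4 Sprouty and Spred genes, SPRED2 made up 63.5% and 50.5% in the U937 libraries, 8.41% and 4.63% in the EaHy libraries, 15.3% and 13.6% in the PC3M libraries, and 29.0% and 24.4% in the HEK293 libraries.

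**Figure D2:**
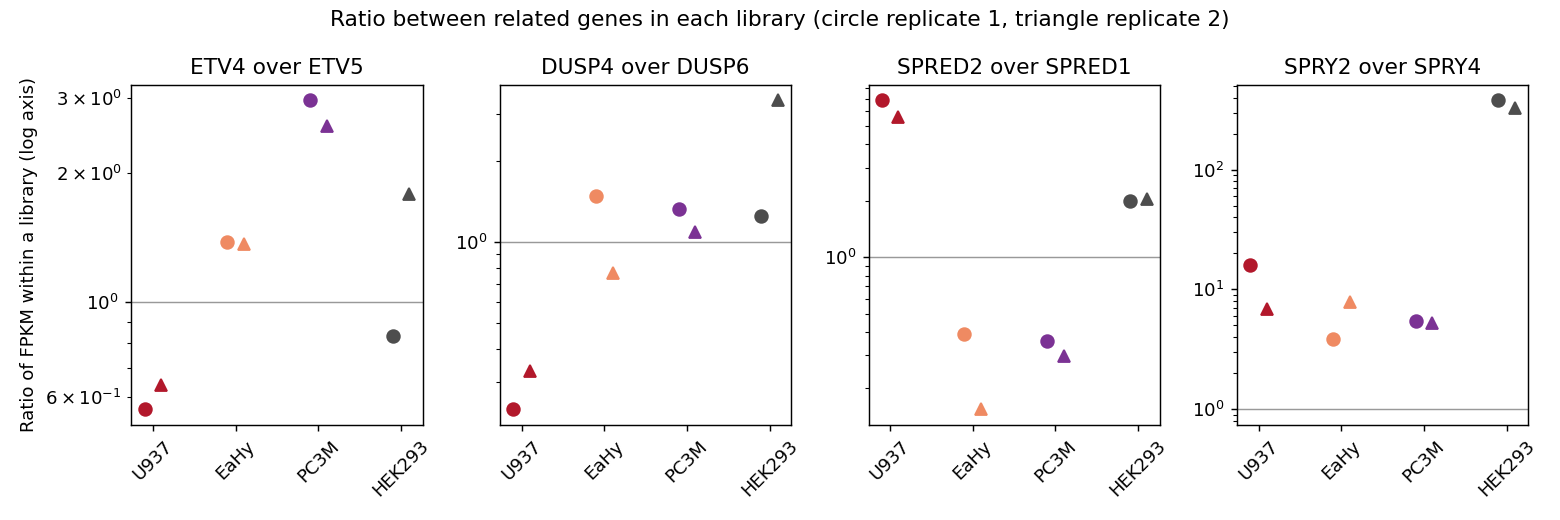
Ratio of FPKM between related genes within each library on a log axis, with the 4 lines on the horizontal axis, a circle for replicate 1 and a triangle for replicate 2. SPRED2 exceeds SPRED1 in U937 and HEK293 and falls short of it in EaHy and PC3M, and SPRY2 is 379 and 328 times SPRY4 in HEK293, against 3.87 to 16.0 times in the other libraries.

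PHLDA1, a small pleckstrin homology protein induced by growth factors, was highest in EaHy and PC3M. It stood at 1.09 and 1.93 FPKM in U937, 14.1 and 2.61 FPKM in EaHy and 16.7 and 4.24 FPKM in PC3M, against 0.702 and 0.787 FPKM in HEK293. PC3M and EaHy overlapped, U937 lay below both and HEK293 below U937. The log2 difference was 0.66 ± 0.88 in U937, which is within its SE, and 2.43 ± 0.88 in EaHy and 2.86 ± 0.88 in PC3M. That SE is shared by all lines and takes in the wide EaHy and PC3M duplicates. The SD of the log2 levels was 1.58 and 1.31 there, against 0.44 in U937 and 0.07 in HEK293. The EaHy value was 3.55 without EaHy replicate 2 and 1.32 without EaHy replicate 1, the largest gap between the EaHy libraries among the 10 genes.

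**Figure D3:**
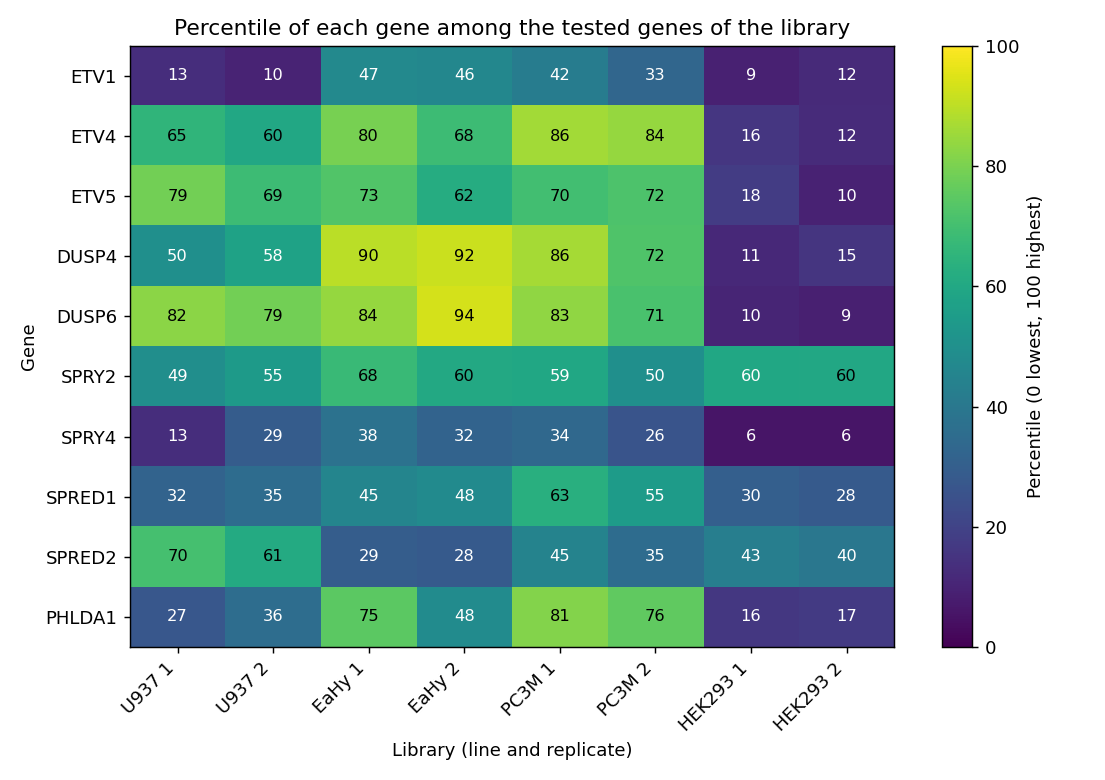
Percentile of each gene among the 16295 tested genes of its library, from 0 (lowest) to 100 (highest), with libraries as columns and genes as rows. DUSP6 lies between 71.2 and 93.7 in the 6 libraries of U937, EaHy and PC3M and at 10.3 and 8.76 in HEK293, while SPRY2 stays between 49.3 and 67.6 in all 8 libraries.

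The rank of a gene within its own library is free of the scale between libraries. By this percentile, DUSP6 lay at 82.5 and 78.8 in the U937 libraries, 84.2 and 93.7 in the EaHy libraries and 83.2 and 71.2 in the PC3M libraries, against 10.3 and 8.76 in HEK293. ETV4 lay at up to 86.3 in the 3 lines, and at 65.5 or more in all but U937 replicate 2, against 15.8 and 12.3 in HEK293. SPRY2 lay at 49.3 to 67.6 in all libraries, HEK293 included (59.6 and 60.1). The median percentile of the 10 genes was 49.6 and 56.1 in the U937 libraries, 70.3 and 54.3 in the EaHy libraries and 66.5 and 63.0 in the PC3M libraries, against 16.1 and 13.9 in HEK293. In percentiles SPRED2 was higher in U937 (70.3 and 61.1) and lower in EaHy (29.4 and 28.4) than in HEK293 (42.6 and 39.7), but PC3M (44.9 and 35.3) overlapped with HEK293.

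Of the 10 genes, 6 (ETV4, ETV5, DUSP4, DUSP6, SPRY4 and PHLDA1) stood lower in both HEK293 libraries than in all 6 others, as did 1.34% of all tested genes. By percentile 7 of 10 did so, with SPRED1 added, against 10.2% of all tested genes. Against HEK293, both libraries lay above both HEK293 libraries for 7 of the 10 genes in U937, 8 in EaHy and 6 in PC3M, where the shares over all tested genes were 18.6%, 13.9% and 7.55%. Both lay below for 2, 1 and 2 of the genes, with 35%, 49.4% and 62.7% of all tested genes. The genes were chosen with these values known, so nothing is read from these counts.

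**Figure D4:**
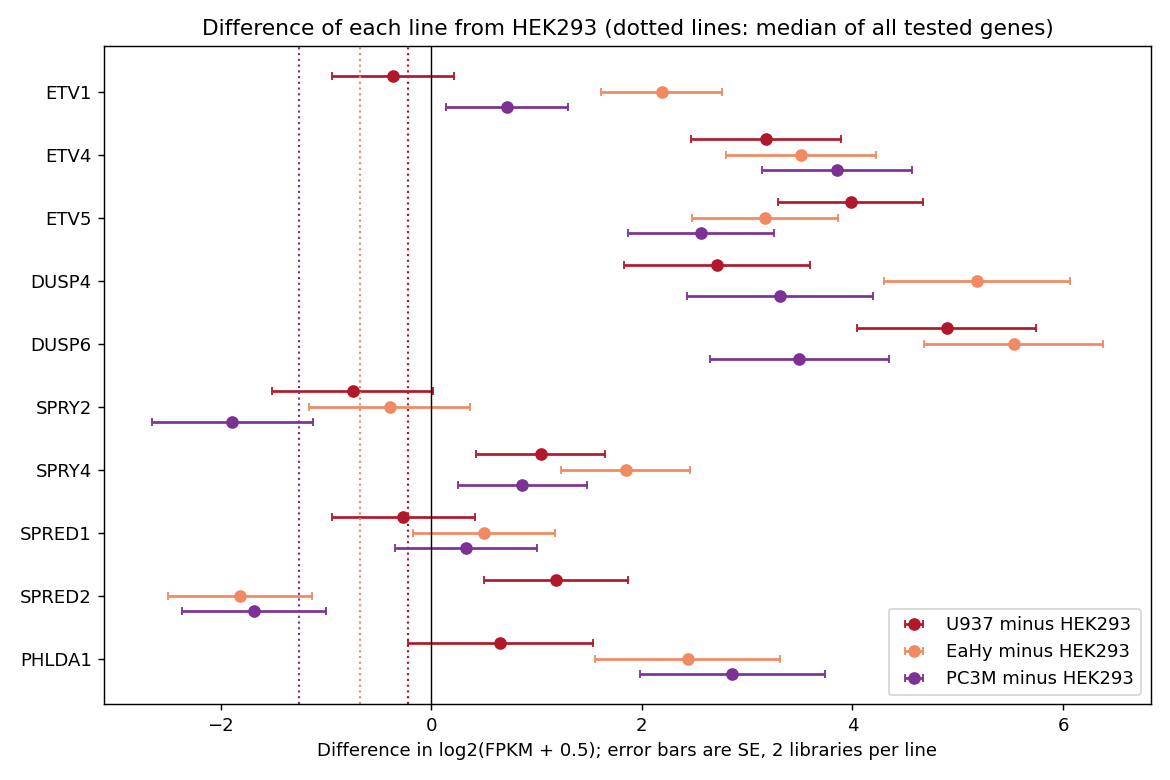
Difference of U937, EaHy and PC3M from HEK293 in log2(FPKM + 0.5) for each gene, with SE bars (2 libraries per line), and dotted lines at the median difference of all tested genes in each comparison. ETV4, ETV5, DUSP4 and DUSP6 lie above 2.5 in each comparison, and SPRED2 lies above 0 in U937 and below −1.5 in EaHy and PC3M.

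The median log2 difference of the 10 genes from HEK293 was 1.11 in U937, 2.31 in EaHy and 1.71 in PC3M. The median over all tested genes was −0.22, −0.67 and −1.26, so the deposited scale put most genes lower in EaHy and PC3M than in HEK293. Median scaling brought the median of all genes to 0.09, −0.07 and 0.05, and that of the 10 genes in PC3M to 2.97. The 3 comparisons share the HEK293 libraries. Between replicates, most of the 10 genes moved in the same direction as most tested genes, but not by the same amount. All 10 were lower in PC3M replicate 2 than in replicate 1, by a median of 1.71 on the log2 scale, with 73% of all tested genes lower and a median gap of −0.87. In EaHy 8 of 10 were lower in replicate 2, all but DUSP4 and DUSP6, with 76.1% of all tested genes. The median gap there was −1.10, against −0.50 over all tested genes. Of the 10 genes, 3 were lower in U937 and 3 in HEK293, with 41.2% and 25.2% of all tested genes. Their median gap was 0.33 in U937 and 0.04 in HEK293, against 0.22 and 0.32 over all tested genes. Of the EaHy and PC3M libraries, EaHy replicate 2 and both of PC3M were those rich in RMRP, and the part of this in the differences was not tested. Without these 3 libraries, which leaves EaHy replicate 1 and no PC3M value, the EaHy differences were 4.14 for ETV4, 3.78 for ETV5, 5.13 for DUSP4 and 5.01 for DUSP6, and 2.59 for SPRY4.

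Among the tested genes whose pattern over the 8 libraries was closest to DUSP6, by the root mean square difference of log2 levels centred on each gene's mean, were SNRPN (0.42), TMSB4X (0.48), CTSZ (0.72) and DOCK10 (0.76). DUSP6 itself varied by 2.24 on this measure, and its nearest relative among the 10 genes was DUSP4 (0.93), followed by ETV5 (1.08) and ETV4 (1.21). Closest to the mean of the 10 genes were FANCF (0.36), HPCAL1 (0.38), TNNT1 (0.38), IFIT2 (0.39) and PARP9 (0.42). The mean varied by 0.95, and the 10 genes themselves lay at 0.38 (SPRY4) to 1.72 (SPRED2) from it. The points share their lines, so closeness here says that a gene separates the same 4 lines.

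Other genes of the pathway were tested in lists, with limma across all tested genes. Over all tested genes the share called higher against HEK293 was 4.47% for U937, 4.55% for EaHy and 2.39% for PC3M, and the share called lower was 10.6%, 9.8% and 25.3%. The PC3M calls over all tested genes also turned with the scale. Those lower went from 4127 to 1979, 1283 and 1463 after upper-quartile scaling, median scaling and quantile normalization. Those higher went from 390 to 1138, 1650 and 1283. Of 31 tested genes in a list of other ERK output, 6 were lower in U937, 7 were higher in EaHy, and 2 were higher and 6 lower in PC3M. The PC3M balance turned with the scale, to 7 higher and 2 lower after upper-quartile scaling, 10 and 2 after median scaling and 7 and 1 after quantile normalization. Without HEK293 replicate 1 the U937 and EaHy counts were 2 each, and those of PC3M 0 higher and 1 lower. Without HEK293 replicate 2 the EaHy count was 2 and the other counts were 0 in limma. The U937 count was also 0 without U937 replicate 2 and 4 without U937 replicate 1. In PC3M the lower count was 0 without PC3M replicate 2 and 3 without U937 replicate 1 or 2.

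EPHA2 and CCND1, from that list, had their highest levels in EaHy and PC3M and their lowest in U937. EPHA2, a receptor tyrosine kinase chosen for naming after its values were seen, stood at 0.306 and 0.113 FPKM in U937, 55.0 and 78.4 FPKM in EaHy and 39.6 and 30.8 FPKM in PC3M, against 5.12 and 5.90 FPKM in HEK293. It fell in U937, with a log2 difference of −3.09 ± 0.57, and rose in EaHy by 3.46 ± 0.57 and in PC3M by 2.56 ± 0.57 (limma adjusted p = 0.0077, 0.0054 and 0.018). These calls were lost without HEK293 replicate 1 (0.068, 0.062 and 0.12) or 2 (0.087, 0.054 and 0.13), and in U937 without U937 replicate 2 (0.068). CCND1, the cyclin D1 gene, stood at 0.985 and 0.838 FPKM in U937, 220 and 86.8 FPKM in EaHy and 40.7 and 8.58 FPKM in PC3M, against 5.26 and 6.72 FPKM in HEK293. It rose in EaHy by 4.43 ± 0.84 (limma adjusted p = 0.0098; 0.073 and 0.06 without HEK293 replicate 1 or 2). In PC3M its difference of 1.58 ± 0.84 did not pass in limma (adjusted p = 0.17), but passed after upper-quartile scaling (0.0097), median scaling (0.0032) and quantile normalization (0.018), and it was 0.49 without PC3M replicate 1 and 2.67 without PC3M replicate 2. In U937 its difference of −2.19 ± 0.84 did not pass in limma (adjusted p = 0.15), with 0.014 to 0.51 over the alternatives. It passed after upper-quartile or median scaling (0.031 each), in a fit of U937 and HEK293 alone (0.014) and without PC3M replicate 1 (0.048), PC3M replicate 2 (0.049) or the 3 libraries rich in RMRP (0.02). EPHA4, an ephrin receptor, fell in U937 by 3.29 ± 0.58 (limma adjusted p = 0.0062; 0.058 without U937 replicate 2 and 0.05 without HEK293 replicate 2). In PC3M its fall of 2.17 ± 0.58 (limma adjusted p = 0.03) was lost after upper-quartile scaling (0.13), median scaling (0.31) and quantile normalization (0.44), with no filter (0.065), in a fit of the 2 lines alone (0.091), and without PC3M replicate 2 (0.13) or either library of U937 (0.057 and 0.06) or HEK293 (0.13 and 0.16).

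Of 27 tested genes of the kinase cascade, from RAS exchange factors to ERK, 1 was higher and 1 lower in U937, 1 higher and 2 lower in EaHy, and 9 were lower in PC3M. The U937 and EaHy counts were between 0 and 2 with a library left out, and 0 in limma without HEK293 replicate 2. The PC3M count was 7 after upper-quartile scaling, 2 after median scaling and 4 after quantile normalization, 14 without PC3M replicate 1, and 0 in limma without PC3M replicate 2 or either HEK293 library. RASGRP2, of the RAS guanyl-releasing family, rose in U937 by 2.91 ± 0.45 (limma adjusted p = 0.0033; 0.059 without HEK293 replicate 2), and RRAS2, a RAS relative, fell there by 4.06 ± 0.81 (0.011; 0.09 without U937 replicate 2, 0.056 and 0.087 without HEK293 replicate 1 or 2). MAPK3, which encodes ERK1, stood at 11.1 and 1.91 FPKM in PC3M, against 40.3 and 61.8 FPKM in HEK293. Its fall of 3.25 ± 0.87 (limma adjusted p = 0.031) was lost after median scaling (0.068) and without PC3M replicate 2 (0.13), U937 replicate 1 or 2 (0.052 and 0.05) or HEK293 replicate 1 or 2 (0.11 and 0.18).

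Among other brakes, of 14 tested inhibitors of RAS and RAF 1 was lower in U937, 1 lower in EaHy, and 1 higher and 5 lower in PC3M. The U937 call (DAB2IP) was lost without U937 replicate 2 or HEK293 replicate 2. The PC3M count of 5 was 1 after upper-quartile or median scaling, and 0 in limma after quantile normalization and without PC3M replicate 2 or either HEK293 library. SPRY1, another Sprouty gene, stood at 0.179 and 0 FPKM in EaHy, against 4.37 and 6.78 FPKM in HEK293. This fall of 3.35 ± 0.78 (limma adjusted p = 0.023) was lost without EaHy replicate 2 (0.1), HEK293 replicate 1 (0.083) or HEK293 replicate 2 (0.15). Of 10 other MAP kinase phosphatases, 1 was higher and 2 lower in U937, 1 higher and 3 lower in EaHy, and 4 lower in PC3M, where the count was 1 after each of the 3 scalings and without PC3M replicate 2 or either HEK293 library. The EaHy count of 3 was 1 without EaHy replicate 2 or HEK293 replicate 2, and the U937 count of 2 was 1 without U937 replicate 2 or HEK293 replicate 2. PTPN7, a tyrosine phosphatase of blood cells that acts on ERK, stood at 28.7 and 84.4 FPKM in U937, against 0.0622 and 0.0200 FPKM in HEK293, and rose by 6.53 ± 0.73 (limma adjusted p = 0.001). DUSP8, a phosphatase of the stress kinases, fell in U937 by 2.66 ± 0.45, in EaHy by 2.58 ± 0.45 and in PC3M by 2.98 ± 0.45 (limma adjusted p = 0.0051, 0.0068 and 0.0045). PTPRR, a receptor phosphatase that binds ERK, rose in EaHy by 2.61 ± 0.36 (0.0025). These 5 calls passed under all alternatives run. DUSP9 stood at 6.24 and 16.3 FPKM in HEK293 and at most 1.24 FPKM in the other libraries, the opposite of DUSP4 and DUSP6. Its log2 difference was −3.62 in U937, −3.61 in EaHy and −3.31 in PC3M, each ± 0.82. Limma called all 3 lower (adjusted p = 0.018, 0.021 and 0.024). These DUSP9 calls were lost with a pseudocount of 0.1 (0.059, 0.072 and 0.065) and with no filter (0.054, 0.058 and 0.057). The PC3M call was also lost after each of the 3 scalings. Each DUSP9 call was lost, too, without replicate 2 of its line or of HEK293, and that of PC3M without HEK293 replicate 1. With a library left out, the DUSP9 difference lay between −4.41 and −2.84 in U937, −4.32 and −2.91 in EaHy, and −4.01 and −2.62 in PC3M.

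Of 12 tested genes of PEA3 turnover and repression, 1 was higher in U937, and 6 were lower in PC3M, a count of 4, 3 and 2 after upper-quartile scaling, median scaling and quantile normalization. In EaHy 0 passed in limma, and 1 had an unadjusted p under 0.05. CIC was listed at 0 in both PC3M libraries, and stood at 6.57 and 13.8 FPKM in U937, 14.1 and 2.51 FPKM in EaHy and 8.15 and 13.1 FPKM in HEK293. Its difference between PC3M and HEK293 passed in limma (adjusted p = 0.0097), with 0.059 without PC3M replicate 2 and 0.084 without HEK293 replicate 2. A value of 0 in this table can be a failed estimate. The PC3M count of 6 was 1 without HEK293 replicate 1 and 0 in limma without HEK293 replicate 2 or PC3M replicate 2. ETV6, an ETS repressor, rose in U937 by 3.41 ± 0.64 (limma adjusted p = 0.0081), with 0.051 to 0.083 without either library of U937 or HEK293.

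**Figure D5:**
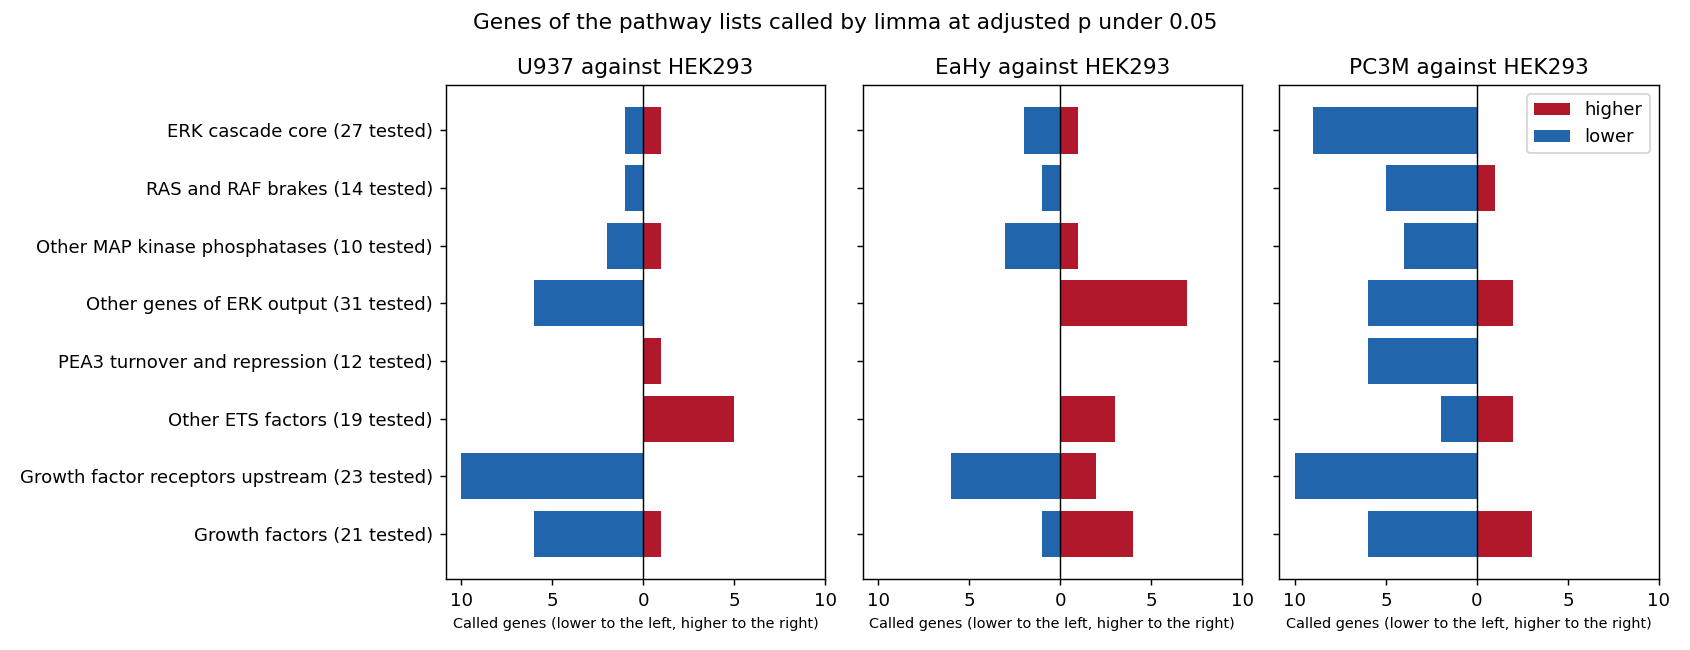
Number of genes called by limma (adjusted p under 0.05) in each pathway list, lower to the left and higher to the right of 0, for U937, EaHy and PC3M against HEK293. Other ERK output genes are called lower in U937 (6) and higher in EaHy (7), and growth factor receptors are called lower in U937 (10) and PC3M (10).

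Other ETS factors, which bind a motif like that of the PEA3 factors, differed by line. Of 19 tested, 5 were higher in U937, 3 higher in EaHy, and 2 higher and 2 lower in PC3M. The U937 count was 3 without either library of U937 or HEK293. FLI1 rose in U937 by 5.31 ± 0.51 and in EaHy by 4.57 ± 0.51 (limma adjusted p = 0.00067 and 0.0012), and ETS1 by 4.93 ± 0.65 and 4.57 ± 0.65 (0.0018 and 0.0028). SPI1, the myeloid factor, rose in U937 by 6.67 ± 0.91 (limma adjusted p = 0.0021), ERG, the endothelial one, in EaHy by 5.38 ± 0.47 (0.00074), and SPDEF, an epithelial one, in PC3M by 3.89 ± 0.59 (0.0047). These calls passed under all alternatives run. The PC3M counts were 1 higher without PC3M replicate 2 or either HEK293 library, and the lower count was 7 without PC3M replicate 1, 1 without either U937 library and 0 in limma without PC3M replicate 2 or either HEK293 library.

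Of 23 tested growth factor receptors, which feed the cascade, 10 were lower in U937, 2 higher and 6 lower in EaHy, and 10 lower in PC3M. Scaling left the U937 count at 9 to 10 and the PC3M count at 7 to 8, with 2 receptors then higher in PC3M. The U937 count was 5 or 6 without either library of U937 or HEK293, and the PC3M count was 5 without either HEK293 library and 6 without PC3M replicate 2. FGFR3, a fibroblast growth factor receptor, stood at 0.143 and 0.0223 FPKM in U937, 0.289 and 0 FPKM in EaHy and 0.0200 and 0.00331 FPKM in PC3M, against 8.71 and 17.0 FPKM in HEK293. It fell by 4.46 ± 0.47 in U937, 4.34 ± 0.47 in EaHy and 4.63 ± 0.47 in PC3M (limma adjusted p = 0.00089, 0.0011 and 0.0013). ERBB2 fell in U937 by 3.99 ± 0.57 (0.0025), and TEK and AXL rose in EaHy by 5.86 ± 0.49 and 5.80 ± 0.85 (limma adjusted p = 0.00064 and 0.0033).

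Of 21 tested growth factors, 1 was higher and 6 lower in U937, 4 higher and 1 lower in EaHy, and 3 higher and 6 lower in PC3M. The EaHy count of 4 was 6 after upper-quartile scaling and 9 after median scaling or quantile normalization, and 2 without EaHy replicate 1 or either HEK293 library. In PC3M the balance was 6 higher and 4 lower after median scaling, and the lower count was 1 or 2 without PC3M replicate 2 or either HEK293 library, when the higher count was 3 without the PC3M library and 0 in limma without a HEK293 library. The U937 count of 6 was 1 and 2 without HEK293 replicate 1 and 2, 2 without U937 replicate 1, and 0 in limma without U937 replicate 2. HGF, the ligand of the MET receptor, rose in U937 by 3.62 ± 0.37 (limma adjusted p = 0.00082). NRG1, a ligand of ERBB receptors, and PDGFB rose in EaHy by 5.47 ± 0.71 and 3.65 ± 0.39 (limma adjusted p = 0.002 and 0.0011). AREG, an EGFR ligand that ERK signalling also induces, rose in PC3M by 2.77 ± 0.56 (limma adjusted p = 0.014; 0.091 and 0.074 without HEK293 replicate 1 or 2).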

How the data were processed

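RNA of 4 human cell lines was sequenced, 2 libraries per line. The submitters' processing notes name cutadapt, TopHat2 2.0.11, Cufflinks 2.2.1 and the build hg19, and the gene annotation is not given in the sources used here. The authors deposited FPKM per gene symbol, and further scaling is not stated. A library rich in a few small RNAs can have lower FPKM for all other genes, so scaled values and percentiles within a library were also computed.

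FPKM were analysed as log2(FPKM + 0.5) with limma 3.58.1 in R 4.3.3. A gene was tested where 2 or more of the 8 libraries reached 0.5 FPKM. A model with a term per line was fitted with a variance prior that follows the expression level. Each of U937, EaHy and PC3M was set against HEK293 in a two-sided test with Benjamini-Hochberg adjustment over all tested genes, called under 0.05. The script was tested on simulated data. Samples were grouped by their titles. Replicate deviations correlated between lines at −0.151 to 0.326, so the numbers were not taken as pairs.

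The 10 members, the 8 pathway lists (ERK cascade core, RAS and RAF brakes, other MAP kinase phosphatases, other ERK output, PEA3 turnover and repression, other ETS factors, growth factor receptors, growth factors) and all tests were chosen with earlier results of these data known. A few genes stand in 2 lists. The rule named up to 3 called genes with the largest change per list and comparison, or the 2 most abundant where none was called, of which the text gives a part, and 5 genes per likeness search. Some items are not reported here. EPHA2, and CCND1, EPHA4, DUSP8 and FGFR3 in the comparisons where they were not called among the top 3, were added after their values were seen. Alternatives were other pseudocounts, filters, scalings and priors, fits of 2 lines, a replicate block and leaving out each library, which takes the spread of the remaining library from the other lines. The fit without the 3 libraries rich in RMRP was chosen after the data were seen.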

Additional observations from a re-analysis of the deposited data

Results flagged for a closer look

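SPRED1 and SPRED2 lay on opposite sides of HEK293 in different lines, in both libraries of each line named here. SPRED2 was higher in U937 (log2 difference 1.19) and lower in EaHy (−1.81) and PC3M (−1.68). SPRED1 was lower in U937 (−0.26) and higher in EaHy (0.50). The difference between the lines was not tested, since the genes were chosen with these values known. By percentile within the library, PC3M overlapped with HEK293 for SPRED2, and SPRED1 was higher in U937 (31.9 and 35.2) than in HEK293 (30.3 and 28.4), the opposite of its FPKM.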

How the results depend on the processing

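The median log2 difference of the 10 genes from HEK293 stayed positive under every alternative run. It moved beyond the replicate spread with a pseudocount of 0.1 in EaHy (3.25, against 2.31) and PC3M (2.64, against 1.71), and in PC3M after median scaling (2.97) and quantile normalization (2.99). Leaving out each library in turn gave 0.87 to 1.36 for U937, 1.55 to 3.07 for EaHy and 1.14 to 2.30 for PC3M. Over all genes, U937 had 2462 calls (1164 to 2702 with a library left out), EaHy 2339 (965 to 2986) and PC3M 4517 (745 to 7103). The PC3M count was 2802 with no filter, 2933 after median scaling and 2746 after quantile normalization. The share of calls that were higher was 29.6%, 31.7% and 8.63% in U937, EaHy and PC3M as deposited, 34.3%, 45% and 36.5% after upper-quartile scaling, 41.7%, 50.3% and 56.3% after median scaling, and 44.2%, 50.2% and 46.7% after quantile normalization.

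Of 560 single differences of the 10 genes under the alternatives, 493 moved by less than the replicate spread, 58 by more, and 9 turned sign. Those were SPRY2 in EaHy after upper-quartile scaling (0.12), median scaling (0.33) and quantile normalization (0.26) and without EaHy replicate 2, alone or with both PC3M libraries (0.10 each; −0.89 without EaHy replicate 1), SPRED1 in U937 after median scaling (0.042) and quantile normalization (0.34) and in PC3M without replicate 1 (−0.60; 1.26 without replicate 2), and ETV1 in U937 after quantile normalization (0.054). EPHA4 in EaHy, which did not pass (−0.56), turned to 0.14 and 0.11 after median scaling and quantile normalization. With a replicate block, U937 had 2371 calls, EaHy 2233 and PC3M 3871. The cause of these shifts was not tested. With 2 libraries per line and an unknown depth, the precision of low genes such as SPRY4 and ETV1 is limited.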
